A study of Mus musculus with 8 samples.

Results

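The 10 genes described here encode the main heat shock chaperones of the cytosol and the mitochondrion: Hspa8, Hsph1 and Hspa4 of the Hsp70 and Hsp110 families, the J proteins Dnaja1 and Dnajb1, the Hsp90 genes Hsp90aa1 and Hsp90ab1, and the mitochondrial genes Hspa9, Hspd1 and Hspe1. All 10 were found by symbol among the 23469 gene symbols of the deposited tables. Hspa8 and Hsph1 were chosen by their lower RPKM in the knockout libraries of these same data, so their values are given as a description, with no test. The other 8 were listed by function. RNA was sequenced from germinal centre (GC) B cells, the antigen-activated B cells that mutate their antibody genes, sorted from C57BL/6 mice as B220+ FAShigh GL7high cells 13 days after immunization with NP-KLH. The control group (Ctrl) was Irf8+/+ and the knockout group (Irf8 cKO) was Irf8flox/flox, and both groups carried 1 allele that expresses Cre in B cells. There were 2 experiments with 1 library of each group (n = 2 per group), and the labels do not say whether a library came from 1 mouse or from several. A further 4 samples, B cells stimulated in culture with lipopolysaccharide, were not analysed here.

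Hsp70 proteins bind unfolded stretches of other proteins and release them in a cycle driven by ATP. J proteins such as Dnaja1 and Dnajb1 start that cycle by stimulating ATP hydrolysis, and the Hsp110 proteins Hsph1 and Hspa4 end it by exchanging ADP for ATP. Hsp90 takes over many signalling proteins from Hsp70, with the help of cochaperones. In mitochondria, Hspa9 pulls proteins in through the import channel, and Hspd1 forms a barrel, capped by Hspe1, in which they fold. Heat shock factor 1, encoded by Hsf1, raises many of these genes under stress by binding heat shock elements, which are inverted repeats of the bases GAA.

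Hspd1 and Hspe1 are neighbours on chromosome 1 and are transcribed away from each other (Hspd1 from 55077834 to 55087932 on the minus strand, Hspe1 from 55088148 to 55091317 on the plus strand, mm10). The 215 bases between both start sites, at chr1:55087933-55088147, serve as the upstream region of both. They are shown because they hold the longest run of heat shock element letters found upstream of the 6 of the 10 genes whose upstream windows could be searched. The upstream 150 bases of Hsph1 (chr5:149636316-149636465, minus strand) and Dnaja1 (chr4:40722780-40722929, plus strand) are shown beside them, since these genes had 2 of the 3 lowest fitted log2 ratios of knockout to control. Sequences are those of RefSeq for GRCm38.p6, the assembly behind mm10, written 5′ to 3′ on the strand named, with matches to a heat shock element in capitals.
Hspd1 and Hspe1, plus strand: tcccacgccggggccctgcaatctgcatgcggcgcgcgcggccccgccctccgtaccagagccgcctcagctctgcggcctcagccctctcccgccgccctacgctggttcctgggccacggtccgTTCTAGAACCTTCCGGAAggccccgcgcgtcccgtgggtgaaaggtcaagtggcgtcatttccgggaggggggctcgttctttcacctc
Hsph1, minus strand: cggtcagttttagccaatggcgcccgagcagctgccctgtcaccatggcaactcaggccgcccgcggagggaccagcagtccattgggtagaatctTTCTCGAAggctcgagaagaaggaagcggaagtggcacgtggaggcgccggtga
Dnaja1, plus strand: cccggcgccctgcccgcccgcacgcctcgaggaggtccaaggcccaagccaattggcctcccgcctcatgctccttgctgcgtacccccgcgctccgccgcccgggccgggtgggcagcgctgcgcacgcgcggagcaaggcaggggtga

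The letters searched were a pair of units, GAANNTTC or TTCNNGAA, and a run of 3 units, which is GAANNTTC followed by NNGAA or TTCNNGAA followed by NNTTC, in the 250 bases before the start site. The first 2 read the same on both strands and each run of 3 is the reverse of the other, so both strands were covered, and a run of 3 always contains 2 overlapping pairs. The interval of Hspd1 and Hspe1 held both runs of 3, overlapping each other, from base -89 to base -72 of Hspe1 and from base -144 to base -127 of Hspd1. Hsph1 held 1 pair, from base -54 to base -47. No match lay in the windows of Dnaja1, Dnajb1 and Hspa4, and Hspa8, Hsp90aa1, Hsp90ab1 and Hspa9 had no entry in the table used. Of all 32851 windows in that table, 12.8% held a pair and 0.466% a run of 3. Of 46 other chaperone genes whose windows could be searched, 6 (13%) held a pair and 1 (2.17%) a run of 3. A match describes the letters and does not show that a factor binds there.

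**Figure D1:**
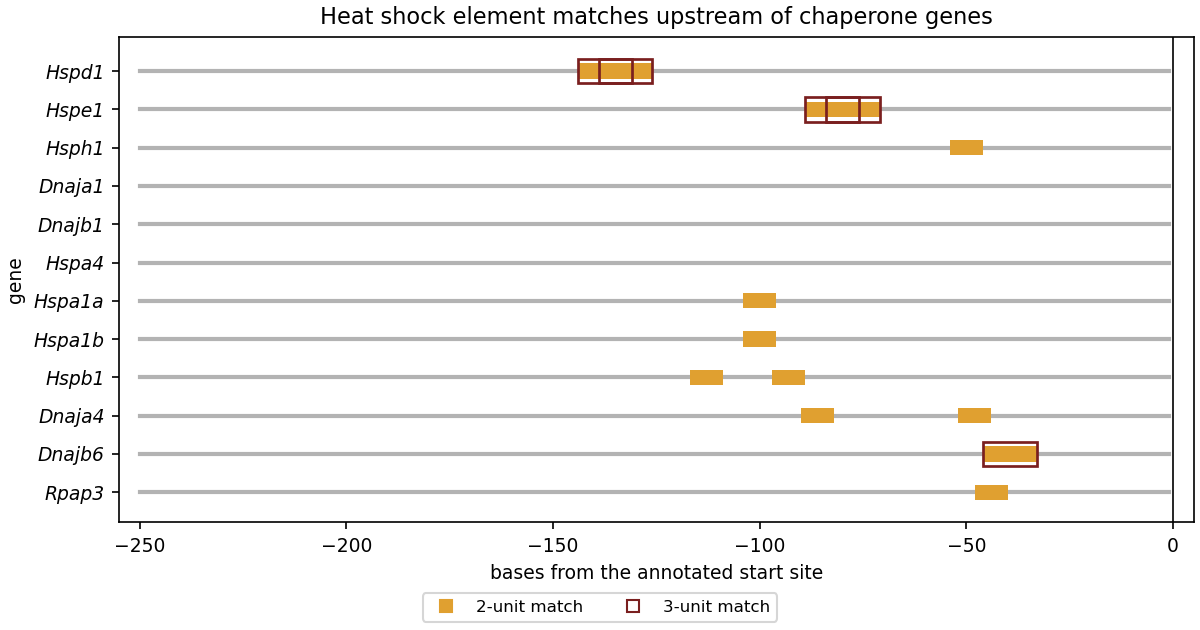
Positions of heat shock element letters in the 250 bases before the start site of 6 of the 10 chaperone genes and of the 6 other chaperone genes with a match. The latter came from 46 other chaperone genes searched (13%, against 12.8% of all windows). The x axis gives bases from the annotated start site, filled boxes are pairs of units and open boxes runs of 3 units, and the runs of 3 in Hspd1 and Hspe1 are 1 shared stretch seen from both genes.

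Values are RPKM, reads normalized to the length of the transcript and to the mapped reads of the library, as the authors deposited them. Estimated totals were 63.2 to 73.5 M reads in Ctrl and 63.8 to 76.1 M reads in those labelled Irf8 cKO. For the 10 genes this comes to between 290 reads (Hspe1 in Irf8 cKO 2) and 22860 reads (Hsp90ab1 in Irf8 cKO 1). Irf8 itself, the targeted gene, was at 14.5 and 14.9 RPKM in Ctrl 1 and 2 but at 20.6 and 11.6 in those labelled Irf8 cKO 1 and 2. It was thus not lower in both, and a value over the whole gene does not check a deletion of some exons, so each direction below is that of the libraries as labelled. Of 10 GC B cell and B cell markers, all were detected in every library at 3.02 RPKM or more, and their sum was 488.2 and 442.1 RPKM in Ctrl against 365.2 and 250.3 in those labelled Irf8 cKO. Plasma cell markers (5 genes) summed to 43.1 and 25.7 against 33.2 and 19.6 RPKM. T cell markers were under 1 RPKM in all 4 libraries (6 of 6), and summed myeloid markers (8 genes) were at 78.8 and 10.1 RPKM in Ctrl but at 21.4 and 2.33 in those labelled Irf8 cKO. Of these, Cd14 was listed at 0 throughout, Csf1r was at 0.0935 RPKM or less, and S100a8 had the widest range, from 26.01 in Ctrl 1 to 0.477 in the library labelled Irf8 cKO 2. The part of the cell makeup in the results below was not tested. Over the 6446 genes tested, those with 1 RPKM or more in at least 2 libraries, the median log2 ratio of Irf8 cKO over Ctrl was -0.35 (-0.18 in experiment 1 and -0.51 in experiment 2). Each ratio is therefore also given after median-of-ratios scaling, which divides each library by its median ratio to the geometric mean of the 4 and leaves a median of -0.035. On that scale, Irf8 was at 11.8 and 13.0 RPKM in Ctrl 1 and 2 but at 19.3 and 17.0 in those labelled Irf8 cKO. Both knockout values thus lay above both Ctrl values (log2 ratio 0.51, limma adjusted p = 0.477), as for 13% of all genes tested. In bulk samples, fewer cells of a type and less RNA per cell cannot be told apart.

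In Ctrl, Hsp90ab1 was the most abundant of the 10 transcripts, with 120.5 and 132.6 RPKM, which ranked 27 and 10 among all genes of the 2 libraries. Hspa8 followed with 108.8 and 82.0 RPKM, and the values of both genes did not overlap. Hsp90aa1 measured 32.8 and 28.0 RPKM, Hspa4 19.7 and 21.0, and Hspd1 19.4 and 16.8. The ranges of Hspa4 and Hspd1 did not meet, but the gap between them was smaller than the spread of either gene. Hspe1 had the widest ratio between its replicates, at 18.4 and 8.43 RPKM, and its range took in those of Hspd1 in part and of Hsph1 in full (11.0 and 12.2 RPKM). The lowest were Hspa9 (7.55 and 6.57 RPKM), Dnajb1 (8.90 and 4.43) and Dnaja1 (6.71 and 4.79), whose ranges overlapped. The 10 genes together summed to 353.8 and 316.8 RPKM in Ctrl 1 and 2, and to 265.1 and 146.8 RPKM in those labelled Irf8 cKO 1 and 2. Some of these genes have processed pseudogenes with near-identical sequence, and the counting of reads shared with those is not given in the sources used, so their levels are uncertain to that extent. The library labelled Irf8 cKO 2, the lowest for all 10 genes, also had the most ribosomal precursor RNA (Rn45s at 16716 RPKM, against 5887 to 9085 in the other libraries) and the fewest genes at 1 RPKM or more (4845, against 6171 to 6566), and the part of this in the chaperone values was not tested.

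**Figure D2:**
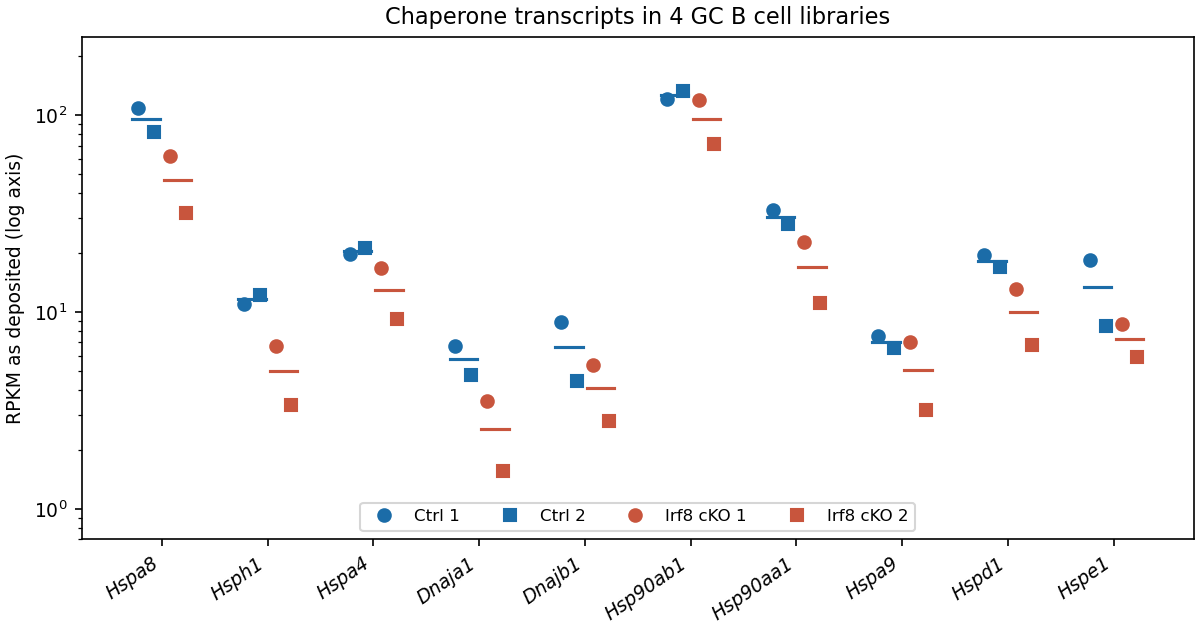
RPKM as deposited of the 10 chaperone genes (log axis) in 2 Ctrl libraries and 2 libraries labelled Irf8 cKO, with circles for experiment 1, squares for experiment 2 and a bar at the mean of each group. The library labelled Irf8 cKO 2 is lowest for all 10 genes, and only for Dnajb1, Hspa9 and Hspe1 do the groups overlap.

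Hspa8, the constitutive Hsp70 of the cytosol, and Hsph1, an Hsp110, had the lowest fitted log2 ratios of RPKM + 1 among the 10 as deposited. In percent of Ctrl, Dnaja1 lay below Hspa8 in both experiments (52.3% and 32.5%), and with a pseudocount of 0.1 its log2 ratio was -1.24 against -1.08 for Hspa8. Hspa8 measured 62.03 and 31.99 RPKM in the 2 libraries labelled Irf8 cKO 1 and 2, which is 57.0% and 39.0% of the Ctrl library of the same experiment. Hsph1 measured 6.69 and 3.35 RPKM, or 60.7% and 27.4% of Ctrl. For both genes, each knockout library lay below both Ctrl libraries. After scaling, Hspa8 stood at 65.4% and 65.1% of Ctrl and Hsph1 at 69.6% and 45.6%, so that Hspa8 kept nearly the same ratio in both experiments and Hsph1 did not. The fitted log2 ratio of RPKM + 1 was -1.07 for Hspa8 and -1.13 for Hsph1 as deposited, and -0.61 and -0.73 after scaling. As deposited, without the library labelled Irf8 cKO 2, these ratios were -0.60 for Hspa8 and -0.71 for Hsph1, and without the library labelled Irf8 cKO 1 they were -1.53 and -1.54. The other Hsp110 gene, Hspa4, measured 16.7 and 9.19 RPKM in the 2 libraries labelled Irf8 cKO, with a log2 ratio of -0.67 ± 0.35 (SE; limma, Benjamini-Hochberg adjusted p = 0.271). After scaling Hspa4 was at 97.1% of Ctrl in experiment 1 and 72.9% in experiment 2 (log2 ratio -0.23, adjusted p = 0.662), so most of its distance lay in the second experiment.

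Dnaja1, a J protein that works with Hspa8, had the lowest fitted log2 ratio among the genes that were not picked for it. It measured 3.51 and 1.55 RPKM in the 2 libraries labelled Irf8 cKO, below both Ctrl values. Its log2 ratio was -0.98 ± 0.30 as deposited (SE; limma, Benjamini-Hochberg adjusted p = 0.0720) and -0.63 ± 0.14 after scaling (adjusted p = 0.350), and it passed in neither. The scaled values were 60.02% and 54.12% of Ctrl in experiments 1 and 2. Dnajb1, the J protein best known as a heat-inducible partner of Hsp70, measured 5.39 and 2.80 RPKM, and these values overlapped those of Ctrl. Its scaled value was 69.4% of Ctrl in experiment 1 and 105.4% in experiment 2 (log2 ratio -0.57 deposited, -0.20 scaled, adjusted p = 0.284 and 0.714). Dnaja1 thus lay below Ctrl in both experiments under either scale, and Dnajb1 as deposited.

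Of the Hsp90 genes, the groups lay apart on both scales for Hsp90aa1 but only as deposited for Hsp90ab1, and the difference between the genes was not tested. Hsp90aa1, the stress-responsive isoform, measured 22.8 and 11.1 RPKM in the 2 libraries labelled Irf8 cKO, both below Ctrl. As deposited the log2 ratio was -0.88 ± 0.35, and with scaling it was -0.44 ± 0.18 (SE; limma, adjusted p = 0.198 and 0.485). Hsp90ab1, the constitutive isoform, measured 119.2 and 71.0 RPKM, so that the first was within 2 RPKM of Ctrl 1. As deposited the log2 ratio was -0.45 ± 0.32, and with scaling it was 0.0095 ± 0.26 (adjusted p = 0.3575 and 0.993). The scaled Hsp90ab1 values were 98.2 and 116.0 RPKM in Ctrl and 111.5 and 103.6 in those labelled Irf8 cKO, which lie inside the range of Ctrl.

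Among the mitochondrial genes, Hspd1, the chaperonin barrel, measured 13.15 and 6.76 RPKM in the 2 libraries labelled Irf8 cKO, below both Ctrl values. As deposited the log2 ratio was -0.86 ± 0.35, and with scaling it was -0.44 ± 0.16 (SE; limma, adjusted p = 0.198 and 0.479), and the scaled values were 77.7% and 67.0% of Ctrl. Its cap, Hspe1, measured 8.69 and 5.88 RPKM, and the first of these exceeded the 8.43 of Ctrl 2. The scaled Hspe1 values were 54.1% of Ctrl in experiment 1 and 116.3% in experiment 2, so that the direction differed between experiments (log2 ratio -0.73 deposited, -0.31 scaled, adjusted p = 0.240 and 0.686). Hspd1 and Hspe1 share the interval printed above, yet Hspe1 amounted to 0.948 and 0.501 of Hspd1 in Ctrl 1 and 2 and to 0.661 and 0.870 in those labelled Irf8 cKO. These ratios overlapped between the groups. Hspe1 has the shortest transcript of the 10 (774 bases) and the fewest reads. Hspa9, the mitochondrial Hsp70, measured 7.02 and 3.16 RPKM, and its log2 ratio was -0.48 deposited and -0.09 scaled (adjusted p = 0.342 and 0.859).

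**Figure D3:**
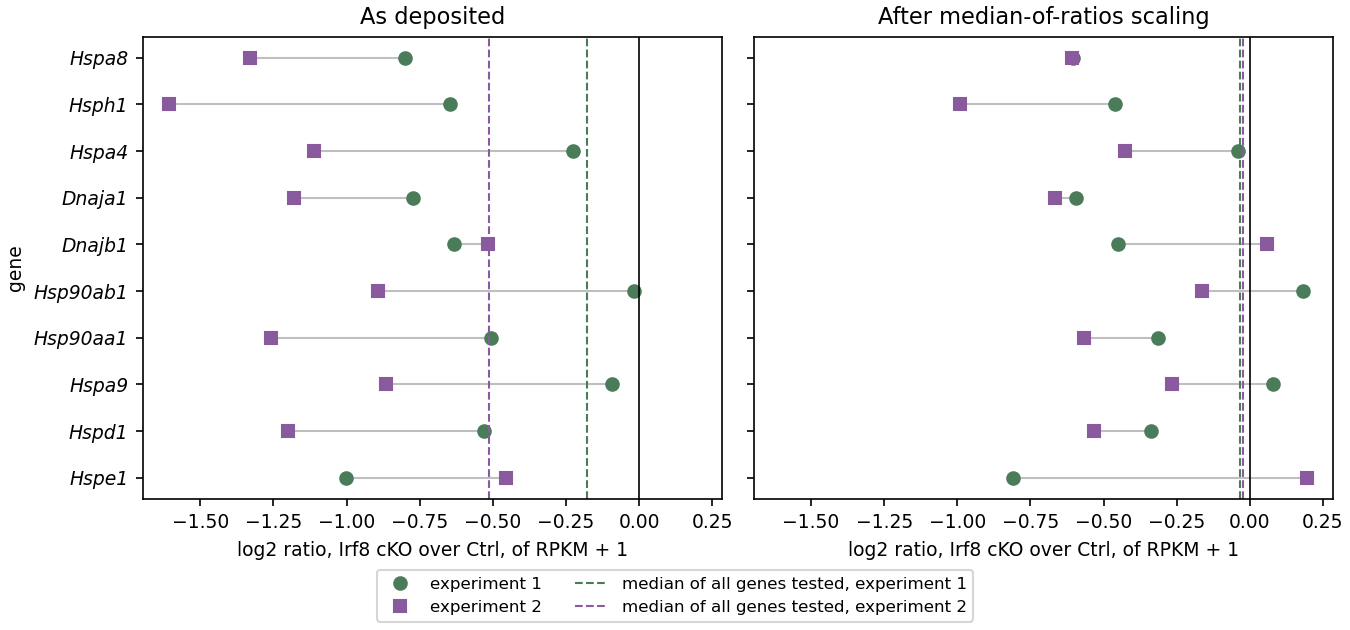
Log2 ratio of RPKM + 1, Irf8 cKO over Ctrl, of the 10 genes in experiment 1 (circles) and experiment 2 (squares), as deposited and after median-of-ratios scaling, with dashed lines at the median of all 6446 genes tested. All 10 genes are below 0 in both experiments as deposited, and 6 are after scaling, with Hspa8 at -0.60 and -0.61. Of all genes tested, 71.2% and 33.2% are. Hspa8 and Hsph1 were picked for their fall, and of the other 8 genes 8 and 4 are.

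Of the 8 genes not picked for their values, none passed the adjusted threshold of 0.05 in limma in either direction, as deposited or after scaling. Among all 6446 genes, 1.09% passed as lower and 0.0931% as higher as deposited, and 0% after scaling. At an unadjusted p under 0.05, 4 of the 8 were lower as deposited, against 18.6% of all genes, and 3 after scaling (Dnaja1, Hsp90aa1 and Hspd1), against 5.9%. Of 1669 genes with 5 RPKM or more in at least 2 libraries, 467 were lower in this way as deposited and 129 after scaling. The counts of the 8 describe a set chosen with earlier results known. The adjusted p of the 8 genes ran from 0.00316 to 0.9999 over the alternatives tried. The low end came from leaving out the library labelled Irf8 cKO 1. That fit had no block, although the pair of experiment 2 remained, and it assumed that the lone knockout library varies like Ctrl. Its log2 ratios of the 8 genes ran from -1.39 for Dnaja1 to -0.82 for Hsp90ab1. Without the variance trend, Dnaja1, Hsp90aa1 and Hspd1 passed, beside 4.3% of all genes.

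By RPKM as deposited, all 10 genes were below 0 in both experiments, as were 71.2% of all genes tested. After scaling 6 were, against 33.2%. Of the 8 genes not picked for their values, all 8 were as deposited and 4 after scaling. By the authors' deposited log2 ratios, Dnajb1, Hsp90ab1, Hspa9 and Hspe1 had opposite signs in the 2 experiments. As deposited, 7 of the 10 genes had both knockout libraries below both Ctrl libraries, as did 44.7% of all genes tested, and none had both above, as did 1.19%. After scaling these were 6 (Hspa8, Hsph1, Hspa4, Dnaja1, Hsp90aa1 and Hspd1), against 18.4% of all genes, and none had both above, against 13%. Hspa8 and Hsph1 were picked for this direction and add nothing to these counts. Of the other 8 genes, 5 were apart in this way as deposited and 4 after scaling. The same held for 802 and 377 of the 1669 genes with 5 RPKM or more in at least 2 libraries. Over the 10 genes, the log2 ratios had a median of -0.80 deposited and -0.37 scaled, against -0.35 and -0.035 over all genes tested. Without Hspa8 and Hsph1 it was -0.70 and -0.27. Genes with 5 RPKM or more in at least 2 libraries, a level that 9 of the 10 reach, had medians of -0.52 and -0.11.

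Ratios between 2 genes within a library do not depend on how the libraries are scaled, and pairs that work together were compared in this way. The pairs were chosen after their values were seen, and a lower ratio of Hsph1 or Hspa8 to another gene in the knockout libraries follows in part from the choice of these genes for their lower values, so it supports nothing. Hsph1 amounted to 0.561 and 0.582 of Hspa4 in Ctrl and to 0.402 and 0.364 in those labelled Irf8 cKO. Hsp90ab1 exceeded Hsp90aa1 by 3.67 and 4.74 times in Ctrl and by 5.23 and 6.39 times in those labelled Irf8 cKO. Dnaja1 amounted to 0.754 and 1.08 of Dnajb1 in Ctrl, and to 0.652 and 0.555 in those labelled Irf8 cKO. In the mitochondrial pair, Hspd1 measured 2.57 and 2.56 times Hspa9 in Ctrl, and 1.87 and 2.14 times in those labelled Irf8 cKO. Hspa8 measured 16.2 and 17.1 times Dnaja1 in Ctrl and 17.7 and 20.6 times in those labelled Irf8 cKO. Against Hsp90ab1, Hspa8 amounted to 0.903 and 0.618 in Ctrl but 0.520 and 0.451 in those labelled Irf8 cKO. An exact permutation test of 2 libraries against 2 cannot give a 2-sided p below 0.333, so no test was made of these ratios.

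**Figure D4:**
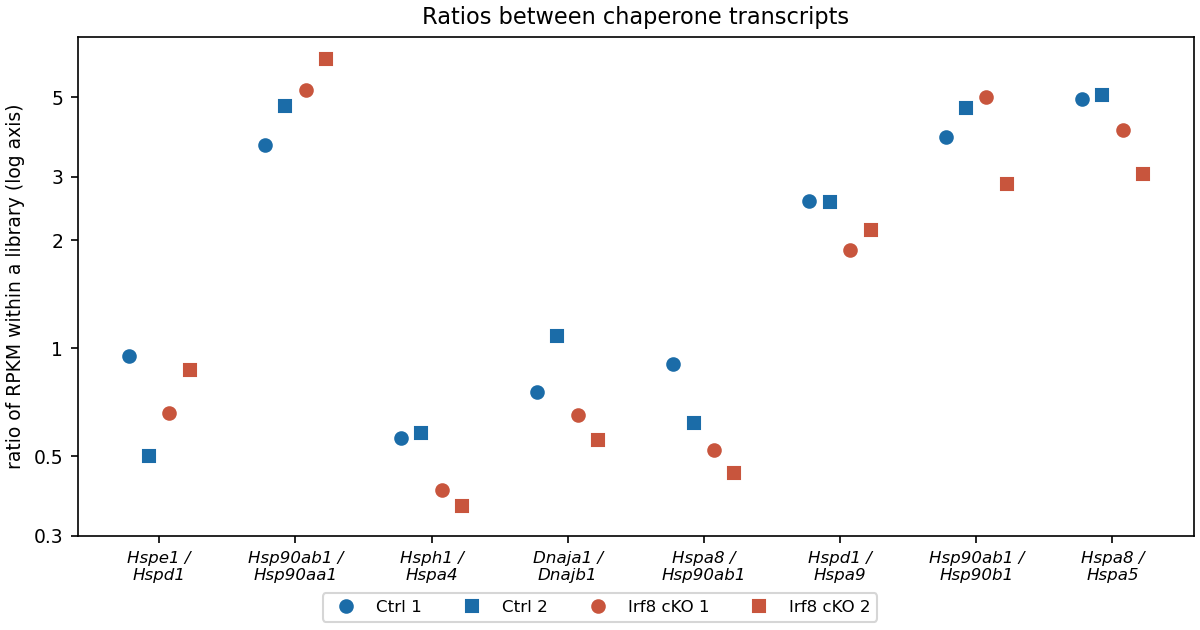
Ratio of RPKM between 2 chaperone genes within each library (log axis), for 8 pairs, with Ctrl libraries in blue, libraries labelled Irf8 cKO in red, circles for experiment 1 and squares for experiment 2. The pairs were chosen after their values were seen, and Hspe1 to Hspd1 spans 0.501 to 0.948 in Ctrl and 0.661 to 0.870 in the libraries labelled Irf8 cKO, which overlap.

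The stress-inducible relatives of these genes were close to 0 RPKM in these cells. The inducible Hsp70 gene Hspa1a measured 0.0243 RPKM in Ctrl 1, 0.0223 in the library labelled Irf8 cKO 2, and was listed at 0 in the other 2 libraries. Hspa1b was listed at 0 in all but Ctrl 2 (0.00561 RPKM), and Hspb1, which encodes a small heat shock protein, reached at most 0.0602 RPKM. Hspa1a and Hspa1b are near-identical copies, so reads that fit both may be missing from these values. Pairs of heat shock units lay upstream of both, from base -104 to base -97, and upstream of Hspb1. None of the 8 inducible and small heat shock genes listed reached 1 RPKM in 2 libraries. The immediate early gene Fos, which can rise when cells are handled, was at 0.669 and 0.399 RPKM in Ctrl but at 1.01 and 0.707 in those labelled Irf8 cKO. Jun, also an immediate early gene, measured 0.235 and 0.163 against 0.312 and 0.235 RPKM, Egr1 4.81 and 4.42 against 4.32 and 3.26, Dusp1 1.498 and 1.355 against 1.488 and 1.589, and Atf3 at most 0.206. Of 15 immediate early genes 5 were tested, and none passed in either direction. Whether handling of the cells has a part in the chaperone values was not tested.

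Of 84 other chaperone genes found in the tables, from a list made by role, 61 were tested and none passed in either direction, as deposited or after scaling (limma, Benjamini-Hochberg). At an unadjusted p under 0.05, 16 of the 61 were lower as deposited, against 18.6% of all genes, and 7 after scaling, against 5.9%. None was higher, against 0.264% and 4.33% of all genes. The median of their log2 ratios stood at -0.44 deposited and -0.09 scaled, and 60 and 38 of the 61 were below 0. Of all genes tested, 92.4% were below 0 as deposited and 56.1% after scaling, and of those with 5 RPKM or more in at least 2 libraries 97.4% and 69.0%, so that the counts for the 61 were near these shares. When the library labelled Irf8 cKO 1 was left out, 21 of the 61 passed as lower as deposited, in the fit that called 22.5% of all genes lower. Hsf1, the heat shock factor, was at 3.44 and 3.41 RPKM in Ctrl but at 2.81 and 2.43 in those labelled Irf8 cKO, with a log2 ratio of -0.29 deposited and 0.061 scaled. The second factor, Hsf2, stayed below the filter at 0.897 and 1.06 against 0.543 and 0.184 RPKM.

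The cochaperones of Hsp90 were the largest group, with 18 genes tested. As deposited 17 were below 0 and after scaling 14, with a median of -0.54 and -0.24. The first count is at the share of all genes below 0 (92.4%), and the second stands beside 56.1%. Among genes with 5 RPKM or more in at least 2 libraries, a level that not all 18 reach, these shares were 97.4% and 69.0%. Ahsa1, which stimulates the ATPase of Hsp90, was at 7.29 and 6.87 RPKM in Ctrl but at 4.32 and 2.75 in those labelled Irf8 cKO (log2 ratio -0.85 as deposited and -0.47 after scaling, limma adjusted p = 0.159 and 0.468). Chordc1, a cochaperone that binds nucleotide-loaded Hsp90, measured 7.88 and 5.26 against 4.21 and 2.56 RPKM (-0.79 and -0.42), and both genes had their knockout values below all Ctrl values. Stip1, which links Hsp70 to Hsp90, measured -0.70 and -0.30 on the log2 scale, and Ptges3, the p23 cochaperone, -0.67 and -0.26. Cdc37, which brings kinases to Hsp90, was at 2.83 and 4.65 RPKM in Ctrl but at 3.68 and 1.68 in those labelled Irf8 cKO, which overlap (-0.39 and -0.06). None of these 5 genes passed.

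All 8 subunits of the TRiC/CCT ring, which folds actin and tubulin, were below 0 on both scales, with a median of -0.64 as deposited and -0.23 after scaling. Most genes of 5 RPKM or more in at least 2 libraries were below 0 as well (97.4% and 69.0%). Tcp1 was at 27.0 and 23.5 RPKM in Ctrl but at 22.0 and 10.8 in those labelled Irf8 cKO, and Cct5 18.5 and 15.2 against 14.5 and 7.83. Of the cofactors of Hsp70, 6 of 6 were below 0 as deposited, and after scaling 5 of 6 were above 0 (median 0.044). Of these, St13 was at 7.79 and 8.46 RPKM in Ctrl but at 7.73 and 4.53 in those labelled Irf8 cKO (log2 ratio -0.39 as deposited and 0.0091 after scaling), and Bag3 stayed below the filter at 0.273 RPKM or less. The 9 other J proteins tested had a scaled median of -0.015. Mitochondrial cofactors and proteases, 9 genes, had -0.021, with Grpel1, the exchange factor of Hspa9, at -0.39 as deposited and -0.18 after scaling, and Trap1, the mitochondrial Hsp90, at -0.15 and 0.24. The relatives in the endoplasmic reticulum measured -0.11 after scaling for Hspa5, 0.17 for Hsp90b1 and 0.067 for Hyou1, and -0.54, -0.28 and -0.29 as deposited. Within libraries, Hspa8 measured 4.94 and 5.06 times Hspa5 in Ctrl, and 4.07 and 3.06 times in those labelled Irf8 cKO. Hsp90ab1 measured 3.87 and 4.66 times Hsp90b1 in Ctrl and 5.02 and 2.86 times in those labelled Irf8 cKO, which overlap. Differences between these groups of genes were not tested.

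**Figure D5:**
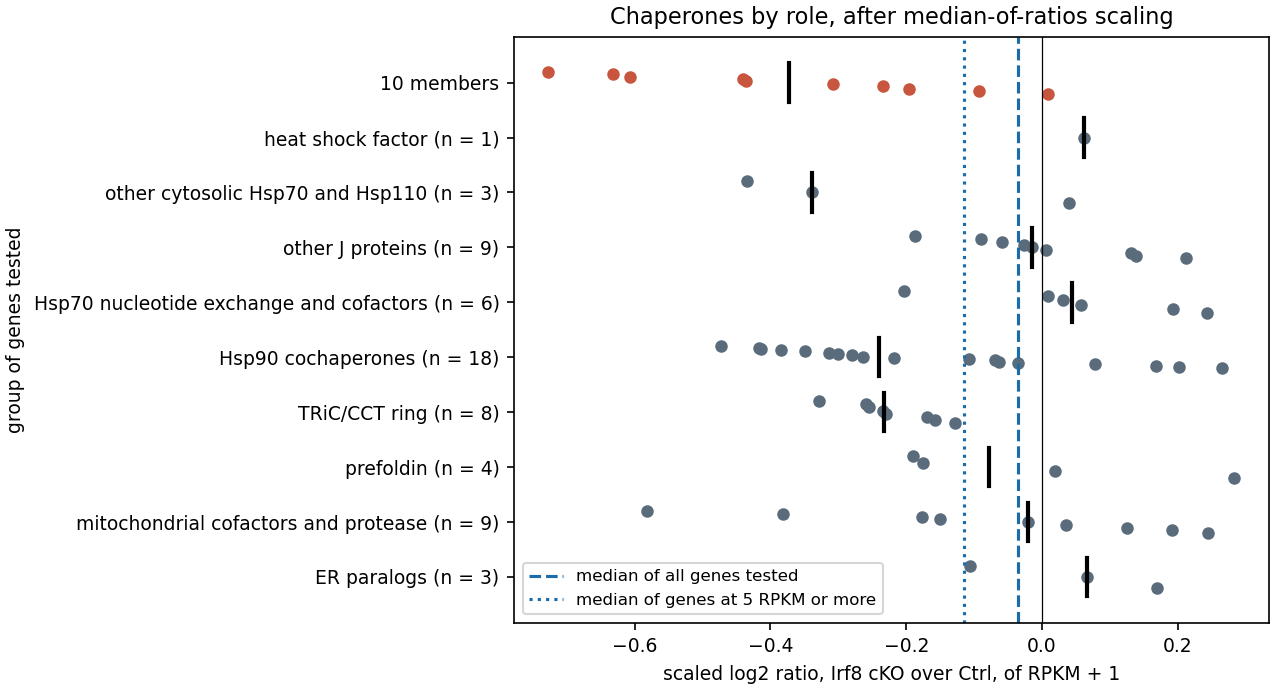
Scaled log2 ratio of RPKM + 1, Irf8 cKO over Ctrl, of the 10 members and of 61 other chaperone genes by role, 1 point per gene with a black bar at each group's median, and blue lines at the median of all genes tested (dashed) and of genes at 5 RPKM or more in at least 2 libraries (dotted). All 8 TRiC/CCT genes are below 0, with a median of -0.23, while the 6 Hsp70 cofactors have a median of 0.044.

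The scaled profile of Hspa8 over the 4 libraries, centred on its mean, was compared with those of 602 genes of 10 RPKM or more on average, by Euclidean distance on the log2 scale. The nearest were Tmsb4x at a distance of 0.0726, Psme1 at 0.0848 and Cnp at 0.0854. Tmsb4x, which encodes an actin-binding peptide, was at 136.3 and 97.7 RPKM in Ctrl but at 74.3 and 37.4 in those labelled Irf8 cKO. Hsph1 was farther from its nearest genes, which were Cd74 at 0.213, Myl6 at 0.317 and Lyn at 0.363. With 4 libraries, such distances describe these samples only.

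In the authors' deposited table, whose log2 ratios compare 1 library with 1 library, Hsph1 stood at -0.516 in experiment 1 and -1.149 in experiment 2, and Hspa8 at -0.606 and -0.637. For Hspa8 these lay nearer the scaled log2 ratios of RPKM + 1 (-0.604 and -0.609) than those as deposited (-0.801 and -1.331). With RPKM + 1, among the 10 genes, only Dnaja1 in experiment 1 lay nearer the value as deposited (-0.7735) than the scaled value (-0.5951). A pseudocount of 1 understates ratios of low genes, so this does not set Dnaja1 apart from the other genes. Without a pseudocount, Dnaja1 in experiment 1 was at 52.3% of Ctrl as deposited and 60.02% after scaling. The authors' deposited table gives Dnaja1 -0.730 (p = 0.0267) and -0.904 (p = 0.0192). For Hspe1 the authors' deposited table has -0.879 (p = 0.0215) in experiment 1 and 0.202 (p = 0.692) in experiment 2. The authors' p-values for Hspa4, Dnajb1, Hsp90aa1, Hsp90ab1, Hspa9 and Hspd1 ran from 0.0652 (Hsp90aa1, experiment 2) to 0.912 (Hspa4, experiment 1). Among these genes, the authors' log2 ratios of Hsp90ab1 and Hspa9 were above 0 in experiment 1, and that of Dnajb1 in experiment 2. All these p-values are unadjusted and rest on no replicate.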

How the data were processed

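The members and gene lists were chosen with earlier results of these data known. Per the labels' protocols, cDNA was amplified (Ovation RNA-Seq System v2) before Nextera XT library preparation. The authors deposited 1 table per experiment with RPKM values, a log2 ratio and a p-value, and the series' design text names Wardrobe as the software. No aligner is named for these tables (not given in the sources used here). Per the submitters' processing notes, TopHat2 2.0, Cufflinks 2.2, Cuffdiff, DESeq, mm9 and mm10 were used, with no role for each. The deposited coordinates match start sites of GRCm38.p6 (mm10) for 77.8% of the 16468 symbols that had an upstream window.

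Entries that share a symbol (2 symbols) were summed. Experiment and genotype were fitted, the former as a block, to log2(RPKM + 1) in R 4.3.3 with limma 3.58.1 (eBayes with a variance trend, 2-sided, Benjamini-Hochberg over 6446 genes, threshold 0.05) and tested on simulated data. A pseudocount of 1 understates ratios of low genes. With 1 residual degree of freedom the prior was infinite as deposited, so each SE came from genes of similar level, and 4.90 degrees of freedom after scaling. Replicates may be technical, since nothing says that they came from separate mice. As deposited the p-values rest on the spread of genes of similar level, and after scaling on that spread and the gene's own. Same-numbered libraries deviated together (correlation 0.377, and 0.336 after scaling), and the labels number the experiments. Median-of-ratios scaling used genes above 0 in all 4 libraries.

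Read totals were estimated from low values of genes with 1 transcript, of which 71.7% to 75.7% came out whole within 0.1 reads. That share was too low to treat the values as counts. Transcript lengths came from GENCODE M21. Named genes are the 10 members, a fixed set of chaperone and immediate early genes, Irf8, and the 3 nearest profiles to Hspa8 and Hsph1. Figures were drawn with matplotlib 3.10.9.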

Additional observations from a re-analysis of the deposited data

How the results depend on the processing

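Over all genes, the 70 lower and 6 higher calls as deposited became 0 and 0 after median-of-ratios scaling, 3 and 1 with upper-quartile scaling, 3 and 1 with scaling factors taken over filtered genes (an alternative chosen after seeing the data), 0 and 0 with no filter, 26 and 0 with the stricter filter, and 277 lower with no variance trend. Without the replicate block the calls were 19 lower and 2 higher, and 2 and 1 with scaling as well. No variance trend gave 3 of the 8 members not picked for their values and 2 of the 61 other chaperone genes as lower. The median log2 ratio of the 10 members was -0.37 after scaling, with or without the replicate block, -0.33 with upper-quartile scaling, -0.32 with factors over filtered genes, and -0.31 with the trend on transcript length also subtracted, likewise added after seeing the data. Hspa8 and Hsph1, which were picked for their fall, are part of this median. Without them it was -0.27 after scaling and -0.21 with the length trend also subtracted, against -0.035 and -0.0026 over all genes tested. Leaving out 1 library at a time, with or without scaling, gave 0 to 1450 lower and 0 to 59 higher genes, 0 to 3 of the 8 members lower, 0 to 21 of the other chaperone genes lower, and a member median from -1.18 to -0.27. The high ends of the lower counts all came from leaving out the library labelled Irf8 cKO 1, as deposited. The sign reversed for Hsp90ab1 (0.0095 after scaling with or without the block, 0.050 with upper-quartile, 0.064 with filtered factors, 0.055 with the length trend), Hsf1 (0.061 after scaling with or without the block, and 0.092 with upper-quartile), and, in the same order, St13 (0.0091 and 0.044), Trap1 (0.24 and 0.28), Hsp90b1 (0.17 and 0.21) and Hyou1 (0.067 and 0.098). Leaving out 1 library, with or without scaling, gave ranges that crossed 0. These were -1.01 to 0.18 for Dnajb1, -0.82 to 0.13 for Hsp90ab1, -0.95 to 0.12 for Hspa9 and -1.25 to 0.16 for Hspe1. They were -0.37 to 0.22 for Hsf1, -0.79 to 0.24 for Cdc37, -0.72 to 0.11 for St13 and -1.14 to 0.15 for Ptges3. The rest were -0.23 to 0.58 for Trap1, -0.80 to 0.055 for Hspa5, -0.35 to 0.51 for Hsp90b1 and -0.55 to 0.18 for Hyou1. As deposited only Cdc37 changed sign in this way (0.0087 without the library labelled Irf8 cKO 2). Every other value above 0 in these ranges came with scaling. The cause of these shifts was not tested. With 2 libraries per group and unequal shares of exonic reads (12.7% and 11.3% in Ctrl, 10.6% and 7.07% in those labelled Irf8 cKO), the data limit what can be called, and none of the 8 members not picked for their values passed the adjusted threshold as deposited or after scaling.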
